A study of Mus musculus with 6 samples.

Results

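The genes described here are 9 genes of myelin and of the Schwann cells that make it in peripheral nerve: Pmp22, Mbp, Mal, Pllp, Cadm4, Prx, Drp2, Cldn19 and Ugt8a. They were taken by symbol from a table of 11815 genes measured in gastrocnemius, a calf muscle, and all 9 had a row in it. The muscle came from wild-type (WT) mice and from mice lacking the long non-coding RNA lnc-ORA (KO), with 3 libraries in each group (WT replicates 2, 3 and 4 and KO replicates 1, 2 and 3). The KO animals were made on a C57BL/6 background by injecting Cas9 mRNA and a pair of guide RNAs into fertilised eggs, which removed 5147 bp holding the whole lnc-ORA transcript; a heritable deletion of this kind is carried by all cell types. Founders were bred to wild-type mice, and the muscle of the KO mice was taken at 15 weeks. The labels give no other treatment, no separate age or strain for the WT mice, and no statement of how many founder lines were used or whether each library was 1 animal. The study asked how lnc-ORA bears on the switching of muscle fibre types.

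Muscle is entered by motor and sensory axons, and the larger of these are wrapped by Schwann cells in a spiral of membrane that insulates the axon and lets impulses jump between nodes of Ranvier. The membrane turns are held together by proteins of compact myelin, among them Pmp22, a tetraspan membrane protein whose gene dosage underlies common inherited neuropathies, and Mbp, which joins the cytoplasmic faces. Outside the compact turns lie adhesion proteins facing the axon, tight junctions between the loops, and a dystroglycan-linked scaffold under the basal lamina, in which periaxin (Prx) binds Drp2. The transcription factors Sox10 and Egr2 drive these genes in Schwann cells. In a whole-muscle extract such transcripts are a small part of the RNA next to that of the fibres.

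Values are RPKM, reads scaled to the length of the gene and to the counted reads of the library, and are therefore per length and comparable between genes. The libraries held 54370181 to 69693905 counted reads, and the 9 genes had from 10 to 1756 reads in a library. The tests were limma fits of log2(RPKM + 1) over the whole table with Benjamini-Hochberg adjustment, and a gene is called at an adjusted p under 0.05. The gene filter of that fit asked for at least 1 RPKM in at least 3 libraries. Of the 9 genes 5 met it (Pmp22, Mbp, Mal, Cadm4 and Prx), and 4 of these, all but Pmp22, met it through WT libraries alone, so they had to differ to be counted. The adjusted p of each of the 9 genes is therefore given from the same fit with no filter (11815 genes), beside limma-voom on reads recovered from the RPKM steps (11814 genes). The muscle identity of the samples was plain, with all 8 fibre markers present and Acta1, skeletal actin, at 5609 ± 55.1 RPKM in WT against 5823 ± 337 in KO (SD, n = 3 each). The level of lnc-ORA itself was not analysed here, so the genotype labels were taken as given. In a bulk sample, fewer cells of a type and less RNA per cell cannot be told apart.

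The genes lie apart from each other in the genome. In the GENCODE M21 annotation (GRCm38, not the GRCm39 of the submitters' processing notes) Pmp22 is on chromosome 11 at 63128982 to 63159547, Prx on chromosome 7 at 27499324 to 27520214 and Drp2 on the X chromosome at 134404551 to 134456573, each on the forward strand. Exons of Prx, Pllp and Cldn19 overlap antisense genes on the other strand over 300, 1128 and 90 bases, and the sources used here do not say whether reads were counted by strand. Few 50-base stretches of the longest transcripts recur in other genes, at most 0.611% for Mbp.

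RefSeq gives promoter windows (GRCm38.p6) for 7 of the 9 genes, and the stretches of Pmp22 and Prx are shown because Pmp22 was the most abundant of the genes and has several start sites, and Prx is the gene it is set beside in a later comparison. Each stretch is the 250 bases before an annotated start, 5′ to 3′ on the gene's strand. Capitals mark the CCAAT box (CCAAT) and the GC box (GGGCGG) on either strand.
Pmp22, first annotated start, chr11:63128732-63128981: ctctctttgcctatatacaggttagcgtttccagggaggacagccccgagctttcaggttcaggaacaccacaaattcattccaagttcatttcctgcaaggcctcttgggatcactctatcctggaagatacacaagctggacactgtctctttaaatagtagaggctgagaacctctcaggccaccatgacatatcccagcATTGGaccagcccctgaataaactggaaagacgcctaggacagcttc
Pmp22, second annotated start, chr11:63131207-63131456: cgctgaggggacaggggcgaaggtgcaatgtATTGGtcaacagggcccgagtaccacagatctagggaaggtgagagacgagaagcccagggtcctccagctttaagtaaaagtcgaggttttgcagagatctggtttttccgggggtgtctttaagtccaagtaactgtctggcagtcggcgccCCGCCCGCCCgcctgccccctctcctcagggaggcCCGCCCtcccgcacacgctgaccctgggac
Prx, chr7:27499074-27499323: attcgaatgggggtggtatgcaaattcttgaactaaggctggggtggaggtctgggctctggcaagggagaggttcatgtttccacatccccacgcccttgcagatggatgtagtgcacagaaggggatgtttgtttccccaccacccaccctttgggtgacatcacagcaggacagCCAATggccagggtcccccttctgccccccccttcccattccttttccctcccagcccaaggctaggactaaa
The first Pmp22 window held 1 CCAAT box and no GC box, with 48.8% G and C. The second held 1 CCAAT box and 3 GC boxes, 2 of them overlapping, with 61.2% G and C. The Prx window held 1 CCAAT box. Further Pmp22 windows are not shown: chr11:63132319-63132568 held neither box, with 64.8% G and C, and chr11:63132553-63132802 held 3 GC boxes, with 73.6%. Pmp22 is known to use an upstream start mainly in myelinating Schwann cells and a downstream start more widely. The windows were not matched to those starts here, and the deposited values give a single level per gene and do not separate the starts.

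Over 11 windows of the 7 genes, some of which overlap, none held the EGR core (GCGNGGGCG), the SOX core (ACAAAG), the sterol regulatory element (TCACNCCAC) or the TATA box (TATAAA) on either strand. The shares of all 32817 windows of the same length were 4.70%, 16.5%, 1.05% and 12.4%. The GC box stood in 7 of the 11 (32.7% of all windows) and the CCAAT box in 3 of the 11 (33.8%). These are matches of letters in a short window only.

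All 9 genes were lower in KO muscle. Their KO means were 20.3% to 39.4% of their WT means, with a median of 25.8%, where the median over all genes was 90.6%. Every KO library lay below every WT library for all 9 genes, an order that 29.9% of all genes shared. A KO mean at or under 39.4% of the WT mean was found for 1.4% of all genes. All 9 were called lower with no filter, where 12.4% of all genes were called lower, and all 9 in limma-voom, where 13.6% were. None was called higher, against 3.2% of all genes with no filter and 3.42% in limma-voom. With the filter, 13.5% of tested genes were called lower and 3.83% higher. The median log2 fold change of the 9 genes in limma-voom was -1.89, against -0.14 over all genes. The members were chosen with earlier results of these data known, so these counts describe them and do not test the choice.

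**Figure D1:**
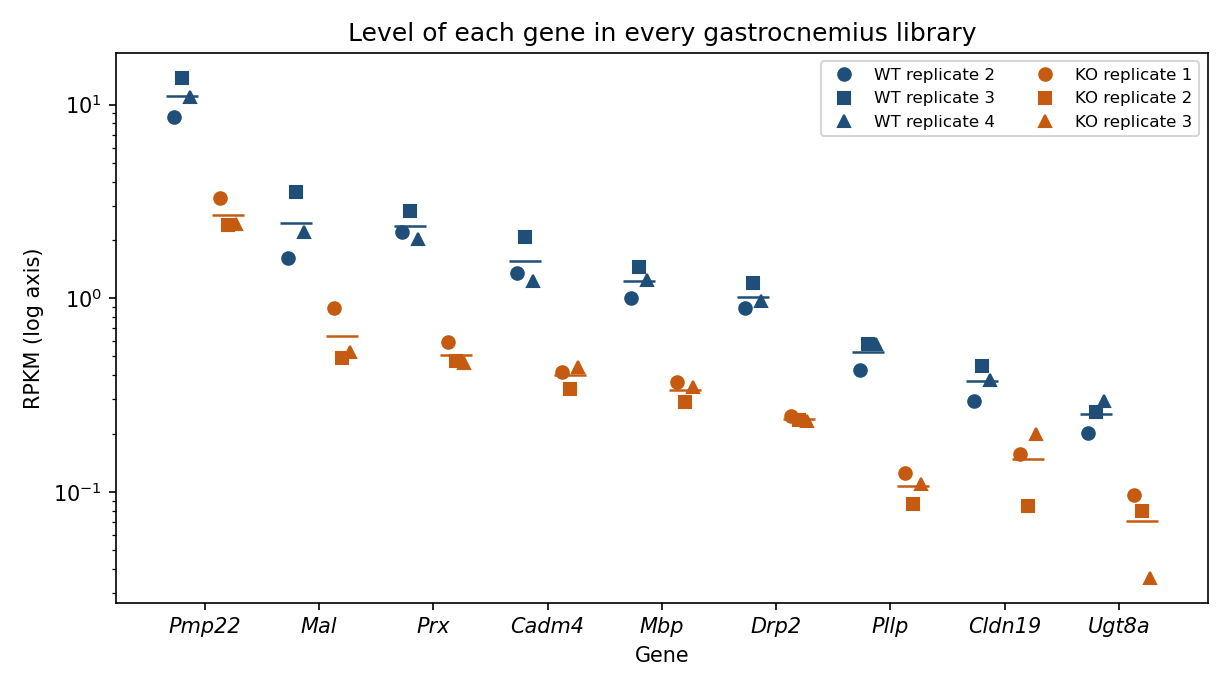
RPKM of each of the 9 genes (horizontal axis, ordered by WT mean) in every library, on a logarithmic vertical axis, with WT libraries in blue, KO libraries in orange, a symbol for each replicate and a line at each group mean (n = 3 each). The KO points lie below the WT points for all 9 genes.

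Pmp22 was the highest of the 9 genes in both groups. It stood at 8.66, 13.7 and 10.97 RPKM in WT replicates 2, 3 and 4 and at 3.28, 2.39 and 2.42 RPKM in KO replicates 1, 2 and 3. The lowest WT library was 2.64 times the highest KO library, and the KO mean was 24.2% of the WT mean (11.1 ± 2.53 against 2.70 ± 0.504 RPKM, SD, n = 3 each). The log2 fold change was -1.70 on the log2(RPKM + 1) scale (SE 0.16, limma adjusted p = 0.00129 with no filter and 0.00136 with it) and -2.02 in limma-voom (SE 0.19, adjusted p = 0.000763).

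Mbp, the protein that binds the inner membrane faces of compact myelin, was at 1.01, 1.45 and 1.23 RPKM in the WT libraries and 0.369, 0.291 and 0.346 RPKM in the KO libraries, in the same replicate order. Its KO mean was 27.2% of the WT mean, with a log2 fold change in reads of -1.85 (limma-voom, SE 0.18, adjusted p = 0.000763). The KO libraries lay close together, within 0.0401 RPKM (SD), and clear of the WT libraries. Mal, a proteolipid that carries membrane to myelin and to epithelial surfaces, was at 1.62, 3.55 and 2.20 RPKM in WT against 0.891, 0.492 and 0.530 in KO. Its WT libraries had the widest relative spread of the 9 genes, since WT replicate 3 was far above the other WT libraries and KO replicate 1 above the other KO libraries. The fall still passed, with the KO mean at 26.0% of the WT mean (limma adjusted p = 0.00966 with no filter, limma-voom adjusted p = 0.00768). Pllp, plasmolipin, a tetraspan proteolipid of myelin, was at 0.427, 0.583 and 0.579 RPKM in WT against 0.126, 0.0863 and 0.110 in KO. This was the largest relative fall of the 9 genes, to 20.3% of the WT mean (limma-voom log2 fold change -2.25, SE 0.29, adjusted p = 0.00252), from 62 to 79 reads in WT and 10 to 18 reads in KO. A count of 10 reads has an exact Poisson interval of 4.80 to 18.4 reads at 95% confidence, which covers counting error only.

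Of the scaffold under the Schwann cell surface, Prx was at 2.20, 2.83 and 2.02 RPKM in WT against 0.595, 0.474 and 0.460 in KO. Its KO mean was 21.7% of the WT mean (limma adjusted p = 0.000975 with no filter, limma-voom log2 fold change -2.18, SE 0.18, adjusted p = 0.000362). Drp2, dystrophin-related protein 2, which Prx ties to dystroglycan in patches along the myelin sheath, fell by a like amount. It was at 0.894, 1.198 and 0.967 RPKM in WT against 0.247, 0.235 and 0.233 in KO, 23.4% of the WT mean (limma-voom log2 fold change -2.07, SE 0.16, adjusted p = 0.00034). The 3 KO libraries agreed within an SD of 0.00719 RPKM, and the lowest WT library was 3.62 times the highest KO library. That was the widest gap between the groups among the 9 genes. Cadm4, the cell adhesion molecule by which Schwann cells hold the axon along the internode, was at 1.35, 2.06 and 1.23 RPKM in WT against 0.418, 0.341 and 0.439 in KO, 25.8% of the WT mean (limma-voom log2 fold change -1.89, SE 0.26, adjusted p = 0.0032).

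Cldn19, a claudin that seals the tight junctions of peripheral myelin, had the smallest fall and the narrowest gap. It was at 0.296, 0.444 and 0.379 RPKM in WT against 0.157, 0.0844 and 0.1995 in KO, 39.4% of the WT mean, and its lowest WT library was 1.48 times its highest KO library. The limma adjusted p was 0.0157 with no filter, and the limma-voom log2 fold change was -1.36 (SE 0.31, adjusted p = 0.0193). In limma with no filter Cldn19 no longer passed on leaving out KO replicate 1, at an adjusted p of 0.0555, or KO replicate 2, at 0.0582. Ugt8a, the enzyme that makes galactosylceramide, the chief glycolipid of myelin, was the lowest of the 9 genes. It was at 0.202, 0.260 and 0.296 RPKM in WT against 0.0962, 0.0793 and 0.0361 in KO, 27.9% of the WT mean, from 10 to 30 reads in KO (limma adjusted p = 0.00829 with no filter, limma-voom log2 fold change -1.89, SE 0.36, adjusted p = 0.00937). With library medians made equal on the log scale and no filter, Cldn19 (adjusted p = 0.166) and Ugt8a (adjusted p = 0.18) did not pass, while both passed when RPKM were multiplied to equal medians before the log (adjusted p = 0.0298 and 0.014). The first of these scalings adds the same amount on the log2(RPKM + 1) scale to genes near 0 as to abundant ones.

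The order of levels was nearly the same in both groups. In WT it ran from Pmp22 over Mal, Prx, Cadm4, Mbp, Drp2, Pllp and Cldn19 to Ugt8a. Each neighbour from Mal to Drp2 overlapped the next over the WT libraries, as did Pllp and Cldn19. Pmp22 stood above all others in every WT library, and Drp2 was above Pllp in all of them. In KO Pmp22 again came first and Ugt8a last by mean, with Cldn19 above Pllp.

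The libraries ranked alike for most of the genes within each group. WT replicate 3 was the highest WT library for 8 of the 9 genes, all but Ugt8a, where 13.8% of all genes had their WT maximum there. WT replicate 2 was the lowest WT library for 7 of the 9 (16.7% of all genes). KO replicate 1 was the highest KO library for 7 of the 9 (22.3% of all genes), the exceptions being Cadm4 and Cldn19, and KO replicate 2 was the lowest for 6 (25.3% of all genes). As the median over the 9 genes of each one's percent of its own WT mean, WT replicates 2, 3 and 4 stood at 80.7%, 119% and 98.7% and KO replicates 1, 2 and 3 at 29.5%, 22.0% and 21.8%. WT replicate 3 also had the fewest counted reads of the 6 libraries, and the part of depth in this was not tested.

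The proportion of Pmp22 to Prx was compared within libraries. The ratio of their RPKM was 3.94, 4.85 and 5.44 in WT replicates 2, 3 and 4 and 5.51, 5.05 and 5.25 in KO replicates 1, 2 and 3. The log2 ratio was 2.23 ± 0.24 (SD, n = 3) over WT libraries and 2.40 ± 0.0634 (SD, n = 3) over KO libraries, a difference of 0.16 with an exact two-sided permutation p of 0.3, where 3 against 3 libraries can give no less than 0.1. The groups overlapped, because WT replicate 4 reached the KO range.

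The authors' deposited table gives its own comparison, in which the direction was the same and the changes smaller. In the authors' deposited table the log2 fold change was -1.35 for Pmp22, -1.46 for Prx, -1.49 for Drp2 and -0.94 for Cldn19. Of the 9 genes, Drp2 alone was under an FDR of 0.05 in the authors' deposited table (0.0495), where 0.906% of all genes were under it and lower. The other FDRs in the authors' deposited table ran from 0.0600 for Pllp to 0.153 for Ugt8a. The log2 ratios of mean RPKM were -1.34 to -2.30, so the values of the authors' deposited table were nearer to 0 by 0.40 to 0.80. This held beyond the 9 genes: 136 other genes with log2 ratios of mean RPKM in the same range had a median of -1.61, and their median in the authors' deposited table was -1.13. The sources used here do not say which libraries and scaling lie behind the authors' deposited test.

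**Figure D2:**
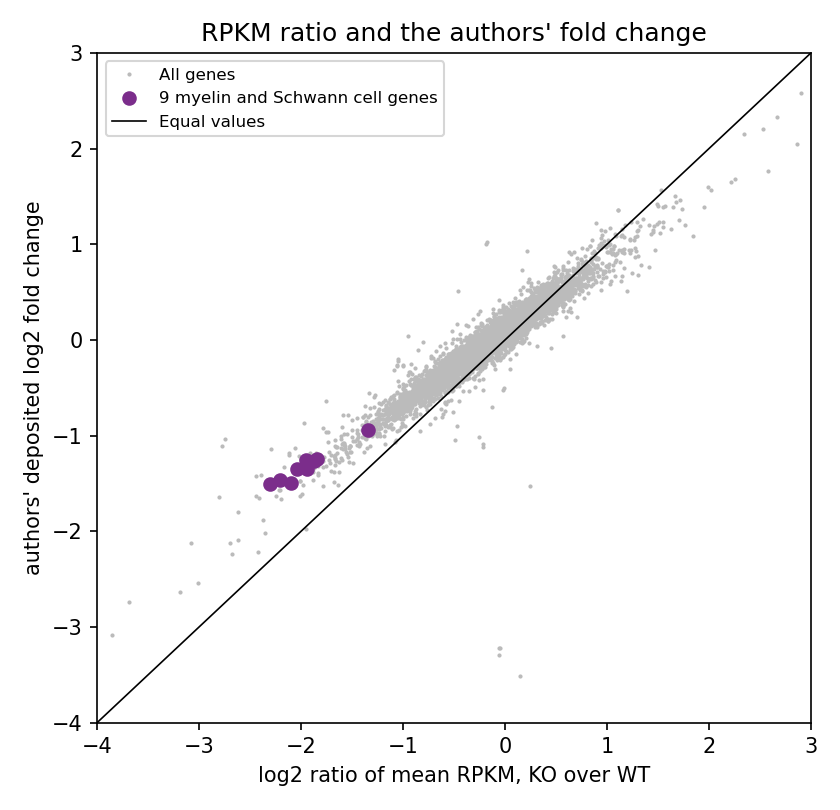
The log2 ratio of mean RPKM, KO over WT (horizontal axis), against the log2 fold change of the authors' deposited table (vertical axis) for 11815 genes in grey and the 9 myelin and Schwann cell genes in purple, with a line at equal values; 3 genes lie outside the axes. The 9 genes sit above the line, with the log2 fold changes of the authors' deposited table nearer to 0 than the RPKM ratios.

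Other myelin genes were read from a list of 21 genes of myelin and of the node of Ranvier, of which 13 had a row. With no filter 7 of the 13 were called lower and 1 higher, and the same counts came from limma-voom. The median log2 fold change of the 13 in limma-voom was -0.68. Pmp2, the fatty acid binding protein of myelin, was at 0.833 ± 0.189 RPKM in WT against 0.122 ± 0.0264 in KO, 14.6% of the WT mean (limma adjusted p = 0.00171 with no filter). It had only 14, 10 and 8 reads in KO replicates 1, 2 and 3. In the authors' deposited table its log2 fold change was -1.11, with an FDR of 0.426. Nfasc, the neurofascin of nodes and paranodes, and Ncmap, a protein of noncompact myelin, stood at 26.6% and 29.0% of their WT means. Leaving out any KO library, or WT replicate 3 for Nfasc, took both past 0.05 in limma with no filter, to 0.0921 and 0.0787 at most. With library medians made equal on the log scale neither was called. Gjc3, a connexin, stood at 62.2% and likewise did not hold its call when libraries were left out (up to 0.12). With no filter it also lost its call with medians made equal on the log scale and with RPKM multiplied to equal medians. The same held with totals without the 10 most abundant genes and with replicate number as a block.

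Several genes of the same list fell less or not at all. Mpp6, a scaffold protein that muscle also expresses, went from 17.8 ± 1.09 to 13.3 ± 0.352 RPKM (limma adjusted p = 0.014), which no longer passed on leaving out KO replicate 1 or 3 (at most 0.0681). Cnp, a phosphodiesterase of noncompact myelin and of many other cells, was at 5.19 ± 0.409 and 4.44 ± 0.277 RPKM (limma adjusted p = 0.174). Cadm1, an adhesion molecule of the same family as Cadm4, was higher in KO muscle, at 0.255 ± 0.0353 RPKM in WT against 0.492 ± 0.0334 in KO (limma adjusted p = 0.00759 with no filter, limma-voom log2 fold change 0.97, SE 0.15). The 2 family members thus moved in opposite directions. The groups did not overlap for either, but 29.9% of all genes had every KO library below every WT library. In the authors' deposited table the FDR was 0.0749 for Cadm1 and 0.0825 for Cadm4. Cadm3, the third member with a row, was at 0.266 ± 0.0275 and 0.167 ± 0.0533 RPKM (limma adjusted p = 0.0879 with no filter).

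**Figure D3:**
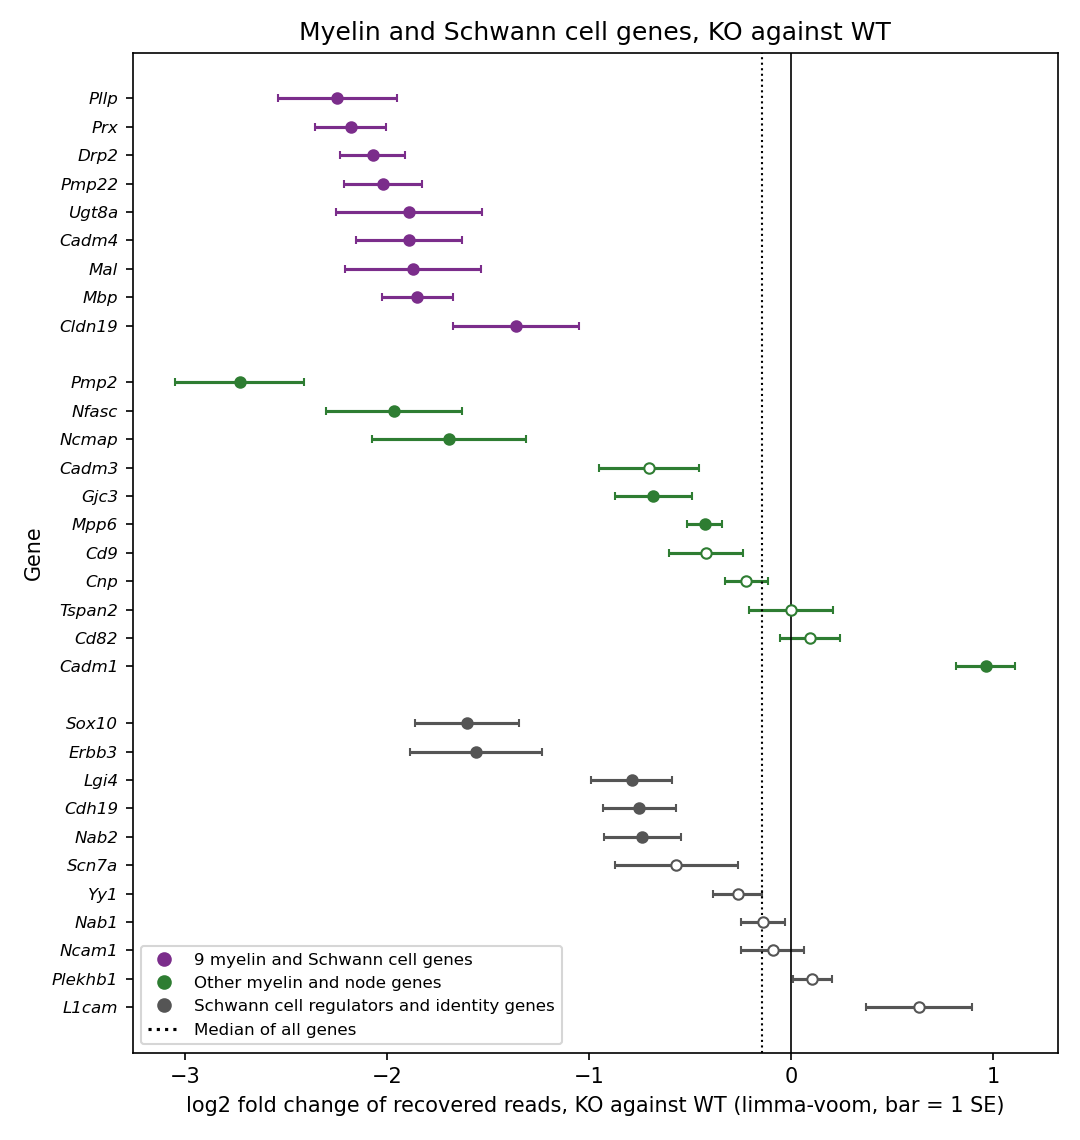
The log2 fold change of recovered reads, KO against WT, from limma-voom with bars of 1 SE (horizontal axis) for the 9 genes in purple, 11 other myelin and node genes in green and 11 Schwann cell regulators and identity genes in grey; filled points passed an adjusted p of 0.05 and the dotted line is the median of all genes at -0.14. The 9 genes lie between -2.25 and -1.36, while the other lists run from -2.73 to 0.97.

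Regulators and identity genes of Schwann cells came from a list of 24, of which 11 had a row, and 5 of the 11 were called lower and none higher with no filter and in limma-voom. Sox10, the factor that drives the Schwann cell fate and its myelin genes, was at 0.439, 0.664 and 0.484 RPKM in WT against 0.172, 0.159 and 0.169 in KO, 31.5% of the WT mean (limma adjusted p = 0.00525 with no filter). Erbb3, the neuregulin receptor of Schwann cells, was at 33.1% of its WT mean (limma adjusted p = 0.0236 with no filter), which no longer passed on leaving out WT replicate 3 or any KO library (at most 0.0897). Nab2, a partner of EGR factors in many cell types, went from 1.26 ± 0.234 to 0.763 ± 0.134 RPKM (limma adjusted p = 0.0358 with no filter), which no longer passed on leaving out WT replicate 2, WT replicate 3, KO replicate 1 or KO replicate 3 (at most 0.135). Cdh19 and Lgi4, genes of the Schwann lineage, stood at 59.8% and 57.2% of their WT means, and leaving out any KO library, or WT replicate 3 for Lgi4, took both past 0.05 in limma with no filter, to 0.0939 and 0.1 at most. Neither was called with library medians made equal on the log scale. L1cam and Ncam1, adhesion molecules of Schwann cells that do not myelinate and of other cells, were at 154% and 94.5% of their WT means and did not pass (limma adjusted p = 0.151 and 0.776 with no filter). With that scaling of medians on the log scale and no filter, L1cam was called higher. Egr2, S100b, Ngfr and Gfap, of the same list, had no row and could not be read.

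Myelin is rich in cholesterol and in long-chain sphingolipids, so genes of lipid synthesis and turnover were read beside Ugt8a. Of 24 listed, 19 had a row, and 6 were called lower and none higher with no filter and in limma-voom. Fdft1, squalene synthase, went from 19.7 ± 4.36 to 8.17 ± 0.160 RPKM (limma adjusted p = 0.00309), and Insig1, a sterol sensor, from 1.84 ± 0.446 to 0.718 ± 0.128 (limma adjusted p = 0.00695 with no filter). Cers2, the ceramide synthase of very long chains, went from 1.52 ± 0.201 to 0.928 ± 0.0258 RPKM (limma adjusted p = 0.0151 with no filter, and 0.0545, 0.0571 and 0.0712 on leaving out KO replicate 1, 2 or 3), and Elovl1, which lengthens those chains, from 0.789 ± 0.0813 to 0.383 ± 0.0566 (limma adjusted p = 0.00605 with no filter). Sterol and ceramide genes are expressed by other cells than Schwann cells too. Hmgcs1 and Fdps, steps of the same sterol pathway, were at 88.5% and 114% of their WT means and did not pass (limma adjusted p = 0.319 and 0.296).

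The partners of Drp2 and Prx at the cell surface, which muscle fibres share, were read from a list of 18 dystroglycan, sarcoglycan, laminin and integrin genes, all with a row. With no filter and in limma-voom 1 of the 18 was called lower and none higher, where 12.4% and 13.6% of all genes were called lower. Itgb4, the integrin subunit of mature Schwann cells and of perineurium, was that gene, at 0.297 ± 0.0779 RPKM in WT against 0.105 ± 0.0125 in KO (limma adjusted p = 0.0145 with no filter). It no longer passed on leaving out KO replicate 1 or 3 (adjusted p of 0.068 at most) or with equal medians on the log scale (adjusted p = 0.0612). Dag1, dystroglycan, was at 5.16 ± 0.757 and 4.86 ± 0.402 RPKM and Lamb2, a laminin chain, at 16.4 ± 1.37 and 15.8 ± 0.211, with overlapping groups. Ezr, which links membrane to actin, was at 1.40 ± 0.153 and 1.03 ± 0.106 RPKM (limma adjusted p = 0.0622).

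Markers of other cell types were counted beside the 9 genes. Axons could hardly be read: 2 of 14 axon markers had a row, Stmn2 and Mapt, at 84.7% and 107% of their WT means, neither of which passed (limma adjusted p = 0.425 and 0.63 with no filter). Summed over list members in each library, the 8 fibre markers came to 76001 to 83513 RPKM in WT against 87083 to 92503 in KO, without overlap, although none passed by itself. Myh4, the main fast myosin, had the smallest p (limma adjusted p = 0.0885) and decided that sum: without it the other 7 came to 42064 to 49145 RPKM in WT against 46445 to 50585 in KO, which overlap. The 9 endothelial markers came to 23.0 to 35.4 RPKM in WT against 19.2 to 20.6 in KO, and with no filter 1 was called lower, Cldn5, the claudin of endothelial barriers, from 2.57 ± 1.005 to 0.711 ± 0.0275 RPKM (limma adjusted p = 0.0072). limma-voom also called Vwf of that list lower (adjusted p = 0.0468). Over all genes 12.4% were called lower with no filter and 13.6% in limma-voom. The 7 fibroblast markers came to 14.1 to 25.1 RPKM in WT against 19.9 to 26.1 in KO, with 1 called higher, Col3a1 (limma adjusted p = 0.0345, and up to 0.107 with a library left out). No gene of 6 pericyte and smooth muscle, 3 macrophage or 3 satellite cell markers with a row was called with no filter. In limma-voom Pax7 of the satellite cell list was lower (adjusted p = 0.0437). The satellite cell markers came to 2.44 to 2.87 RPKM in WT against 1.76 to 2.22 in KO, without overlap. Median KO percents of WT were 71.2% for satellite cell, 72.0% for endothelial and 79.9% for pericyte and smooth muscle markers. They were 109% for macrophage and 113% for fibroblast markers, against 90.6% over all genes. Rgs5, a pericyte gene, was called higher with totals without the 10 most abundant genes, with RPKM multiplied to equal medians and on leaving out WT replicate 2. The 9 genes themselves summed to 16.7 to 26.1 RPKM in WT against 4.47 to 6.17 in KO, and the part of cell makeup in their fall was not tested.

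**Figure D4:**
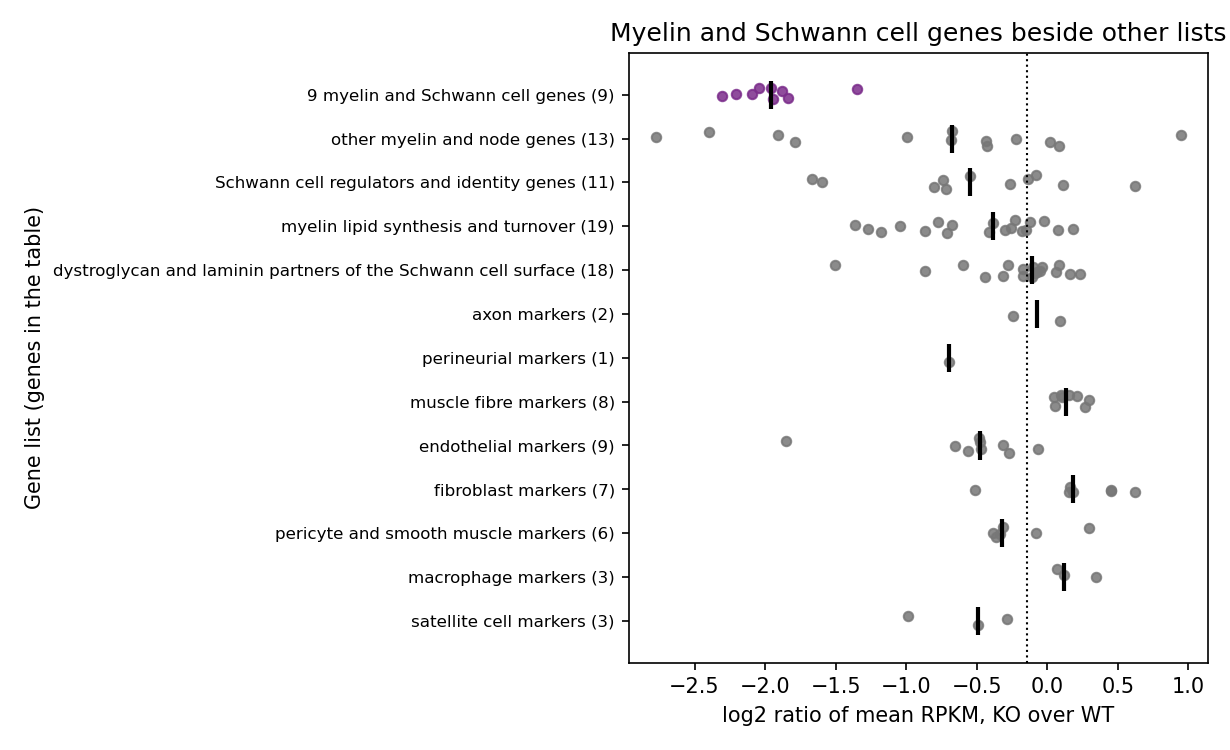
The log2 ratio of mean RPKM, KO over WT (horizontal axis), for each gene of the 9 and of 12 other lists (vertical axis, with the number of genes that have a row); black bars are list medians, the dotted line is the median of all genes at -0.14, and points are spread vertically for legibility only. The 9 genes have a median of -1.95, and the fibre markers one of 0.13.

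Genes outside the 9 with the most similar profile over the 6 libraries were sought among 7569 tested genes, by the root mean square distance of log2(RPKM + 1) values centred on each gene's mean. Among the nearest to Pmp22 were Dusp10, a phosphatase of stress kinases, at 0.19, the microRNA gene Mir101a at 0.30, Spp1, which encodes osteopontin, at 0.32 and Gm26740 at 0.32. Nearest to Prx were Spp1 at 0.0957, Napb, a protein of vesicle fusion, at 0.11 and Cyr61, a matricellular protein, at 0.11. Dusp10 stood at 16.3% of its WT mean, Spp1 at 18.4% and Gm26740 at 24.9%. Mir101a, Napb and Cyr61 stood at 34.8%, 36.9% and 37.4%. The distance takes in the difference between the groups, so a fall in KO came with the choice of these genes. Dusp10 and Spp1 met the filter through WT libraries alone.

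Counts over all genes moved with the scaling. With the filter, 290 genes were called higher and 1021 lower in KO. With library medians made equal these counts were 602 and 665, and with library totals taken without the 10 most abundant genes they were 680 and 613. These scalings moved the median log2 fold change of all tested genes from -0.09 to 0.01 and 0.02, and changes are read against that shift. Over all alternatives the log2 fold change of Pmp22 ran from -2.02 to -1.55. With no filter, all 9 genes were called lower with totals without the 10 most abundant genes and with RPKM multiplied to equal medians. With medians made equal on the log scale 7 of the 9 were, all but Cldn19 and Ugt8a. Over all 11815 genes these settings called 887, 929 and 804 lower, in that order.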

How the data were processed

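Messenger RNA of gastrocnemius was fragmented and copied with random hexamers, per the labels' protocols. The authors deposited RPKM per gene and library in a single table, and the submitters' processing notes name GRCm39. The sources used here name no aligner, counter, annotation or strand setting. The unit is not in the header and was inferred: times gene length and library total, the values came to whole reads (within 0.02) in all libraries for 11814 of 11815 genes, at the GENCODE M21 length for 9227. Per the file headers, the other columns are a log2 fold change, a log2 CPM, the F score of a test, its p-value and an FDR, and that test is not named.

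KO was compared with WT by limma-trend (limma 3.58.1, R 4.3.3) on log2(RPKM + 1), which understates the change of low genes, with genotype as the only term. Of all genes, 7574 passed the filter. limma-voom used the recovered reads and their library totals. The fit was tested on simulated data. Within each group, every pair of libraries differed beyond sampling noise (chi-square over its degrees of freedom 25.3 or more). The p-values measure the spread between these libraries, which may be technical.

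The 9 genes and the gene lists were chosen with earlier results of these data known. All 9 genes are named; of each list, up to 4 called genes with the smallest p or, where none was called, the member with the smallest p; and the nearest profiles. Other listed genes named, such as Pmp2, Sox10, Erbb3, Cadm1 and L1cam, were chosen after their values were seen. A few genes named by these rules are left out of the text and of 1 figure. The GC, CCAAT and TATA boxes were added after the other motifs were counted. No adipocyte marker of 5 and 1 of 6 perineurial markers (Slc2a1, 0.689 ± 0.236 RPKM in WT against 0.426 ± 0.0666 in KO, not called) had a row. With the filter, 1 gene each of the satellite cell, macrophage and axon lists was tested, Cdh15, Lyz2 and Mapt (limma adjusted p = 0.355, 0.851 and 0.609), and of the pericyte markers tested Pdgfrb had the smallest p (limma adjusted p = 0.115). With no filter the smallest p of the first 3 lists were those of Pax7, Mrc1 and Stmn2 (limma adjusted p = 0.0538, 0.391 and 0.425). Alternatives were a pseudocount of 0.1, no filter, a filter on the mean, 2 scalings, replicate number as a block, each library left out and limma-voom; those that join no filter with another choice were chosen after seeing the data. Sums used Python 3.11.15 with pandas 2.3.3 and numpy 2.4.6.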

Additional observations from a re-analysis of the deposited data

How the results depend on the processing

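For each of the 9 genes 12 settings were run with no filter on low values, limma-voom included. No gene thus entered through the filter of 1 RPKM. Any selection of genes before deposit was not examined, so a gene may still have its row through its WT level. Of the 108 values 104 were called lower and 4 were not called, with none above 0; the 4 were Cldn19 without KO replicate 1 or 2 and, with library medians equal on the log scale, Cldn19 and Ugt8a. Over all genes (11815, or 11814 in limma-voom) these settings called 441 to 1782 lower. Adjusted p ran up to 0.0114 for Pmp22 and Drp2, 0.0105 for Prx, 0.0149 for Mbp and Pllp, 0.0216 for Cadm4 and 0.0488 for Mal.

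Of the genes called lower, 5 were among the 9 with the filter, 9 with no filter, 9 in limma-voom and 3 with a filter on the mean, since Mbp and Cadm4 then have too low a mean to be tested. All genes called lower numbered 1469 with no filter and 952 with a filter on the mean. With the main filter they numbered 1021, against 665 with equal medians and 613 with totals without the 10 most abundant genes. They numbered 1605 in limma-voom and 354 to 1293 with a library left out. Genes called higher numbered 290, against 602, 680 and, with a library left out, 117 to 344. Of the 4 myelin and Schwann cell lists together, 6 genes were called lower, 19 with no filter and in limma-voom, and 3 to 8 with a library left out. None was called higher, and 1 (Cadm1) with no filter and in limma-voom. In the order of the text these lists had 5, 4, 8 and 10 genes tested with the filter. With no filter they had 13, 11, 19 and 18. Of all tested genes 13.5% were called lower with the filter, 12.4% with no filter and 13.6% in limma-voom.

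Numbers 2 and 3 occur in both groups. Deviations from the group means correlated across genes at 0.48 for WT and KO replicate 2 and at 0.27 for replicate 3. The value was 0.43 for WT replicate 4 and KO replicate 1, which share no number. That value is not separate from the others, because the deviations of each group cancel out over its libraries. With only 2 shared numbers the pairing was not used. With replicate number as a block, 5 of the 9 genes were called lower with the filter and 9 without. In that fit WT replicate 4 and KO replicate 1 had no partner of the same number. The difference between the groups thus came from the libraries numbered 2 and 3 alone, so the block counts do not rest on all 6 libraries. Over all genes 1171 were called lower and 377 higher with the filter, and 1702 lower and 509 higher without. With the block and no filter, 3 endothelial markers (Cldn5, Tek and Pecam1), 2 pericyte and smooth muscle markers (Tagln and Myh11) and the perineurial Slc2a1 were called lower and the fibre marker Pvalb higher, where without it Cldn5 alone of these was called. The log2 ratio of Pmp22 to Prx differed by 0.24 over the paired numbers, by 0.0032 with a pseudocount of 0.1 and by 0.036 to 0.27 with a library left out. Among the 9 genes the lowest read numbers, down to 10 in a library, were those of Ugt8a and Pllp.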
